A study of Mus musculus with 16 samples.

Results

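The 9 genes described here regulate the conventional dendritic cell (cDC) lineage: Zbtb46, Batf3, Batf, Batf2, Bcl11a, Bcl6, Nfil3, Zeb2 and Notch2. They were chosen by name, and each probe whose gene name on the array equals one of these symbols was taken. This gave 13 probes of the 39429 noncontrol probes on the array, with 2 probes each for Zbtb46, Bcl11a, Zeb2 and Notch2. Of these genes, 8 encode DNA-binding factors, and Notch2 encodes a cell-surface receptor whose released intracellular domain acts in the nucleus. All 13 probes passed the filter on dim probes, which asked for a signal well above background on 3 or more arrays of a group, and 11 of them passed it on all 16 arrays. Zbtb46 probe 2 passed it through 1 group alone, tumor-free CDPs, where it was high, so its differences from that group are given as a description.

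The progenitors compared came from the bone marrow (BM): macrophage-dendritic cell progenitors (MDPs), which can still form monocytes, and common dendritic cell progenitors (CDPs), which descend from them. Both were sorted from lineage-depleted BM of female C57/Bl6 mice. The tumor-bearing groups carried end-stage orthotopic tumors of 1.5 cm, grown in the mammary fat pad from PyMT B6, a cell line made from the MMTV-PyMT mammary tumor model. Tumor-free mice of matched age served as controls. The methods give, as a general rule, tumor implantation at 7 to 8 weeks of age and analysis at 9 to 12 weeks. Each of the 4 groups (MDP tumor-free, MDP PyMT-B6, CDP tumor-free, CDP PyMT-B6) held 4 samples, with BM of 2 mice in each sample, from 4 independent experiments. Each sample was hybridized with Cy5 label to its own array. The tumor-bearing groups thus model the implants of a single tumor line.

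These genes act at successive choices of the lineage. Zbtb46 is a zinc-finger repressor that marks cells committed to cDCs. Batf3, an AP-1 family factor that pairs with Jun and IRF proteins, is needed for cDC1s, the cross-presenting subset, and its relatives Batf and Batf2 can partly replace it. Bcl11a is needed early in DC development and for plasmacytoid DCs (pDCs), and Bcl6 is a repressor needed for cDC1s. Nfil3 and Zeb2 oppose each other, with Nfil3 favoring cDC1s and Zeb2 favoring cDC2s, pDCs and monocytes. Notch2 signaling supports a subset of cDC2s in spleen and gut.

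The array read 2 separate stretches of Zbtb46, Bcl11a and Notch2, and the sequences are shown because the probes of a pair are compared below. The Bcl6 probe is shown because it separated the progenitors most clearly. They are written as on the probes, 5′ to 3′, with mm9 positions as printed by the scanner software, and exons were not assigned because no mm9 annotation was used here. Zbtb46 probe 1 and Notch2 probe 2 are given whole, and the others by their first 30 of 60 bases.
Zbtb46 probe 1, chr2:181146404-181146463, minus strand: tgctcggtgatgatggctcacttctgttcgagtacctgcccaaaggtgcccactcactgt
Zbtb46 probe 2, chr2:181145799-181145858, minus strand: gtcacatgtgcgtttttaaaaaggagttga
Bcl11a probe 1, chr11:24068355-24068414, plus strand: ttttggcagttgtctgcattaacctgttca
Bcl11a probe 2, chr11:24073114-24073173, plus strand: cctgaccccttgtttctatacattctatgt
Bcl6, chr16:23965160-23965219, minus strand: cagggtttggctgtgtctaaactgcattag
Notch2 probe 1, chr3:97953914-97953973, plus strand: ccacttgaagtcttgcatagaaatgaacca
Notch2 probe 2, chr3:97951233-97951292, plus strand: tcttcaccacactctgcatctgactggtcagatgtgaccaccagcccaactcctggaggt
Probe 1 of a pair is the one with the higher mean signal over the arrays, a rule used for numbering alone. The starts of the pair lay 605 bases apart for Zbtb46, 2681 bases for Notch2 and 2736 bases for Zeb2, the same distance in the genome as along the transcript. For Bcl11a they lay 4759 bases apart in the genome. Bcl11a probe 1 was designed on transcript variant 4 and probe 2 on variant 1, so that these probes do not read the same set of transcripts. For Zbtb46 the scanner files list 2 RefSeq mRNAs for probe 1 and 1 for probe 2, and whether these probes read different transcripts was not settled. Over the 16 arrays the probes of a pair correlated with Pearson r of 0.894 for Bcl11a, 0.761 for Notch2, 0.576 for Zbtb46 and 0.446 for Zeb2. After the slide means were removed, r was 0.895, 0.92, 0.798 and 0.474 in that order. These correlations share groups and slides and are given as a description.

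Signals are log2 intensities relative to the 75th percentile of the array, so that 0 is the level of that percentile, and levels of different probes are not compared. The percentile stood at an intensity of 3633 to 4655, and 58.8% to 71.5% of probes were well above background on an array. Arrays of a group correlated with r of 0.904 to 0.977. The 16 arrays were on 4 slides, and the first principal component separated the slides, which took 93.9% of its variance. Each slide carried 1 tumor-free MDP and 1 tumor-free CDP sample, and slides 2 and 3 carried all 4 groups. Slide 1 held no CDP sample from a tumor-bearing mouse and slide 4 no such MDP sample, so for the tumor comparisons slide and group are partly mixed. Values within slides or with the slide as a block are therefore given beside many of the results of the member probes. For the marker and list genes no such values are given, so slide and tumor stay partly mixed there. In RNA of sorted bulk cells, a lower signal from fewer cells of a type and from less RNA per cell cannot be told apart.

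**Figure D1:**
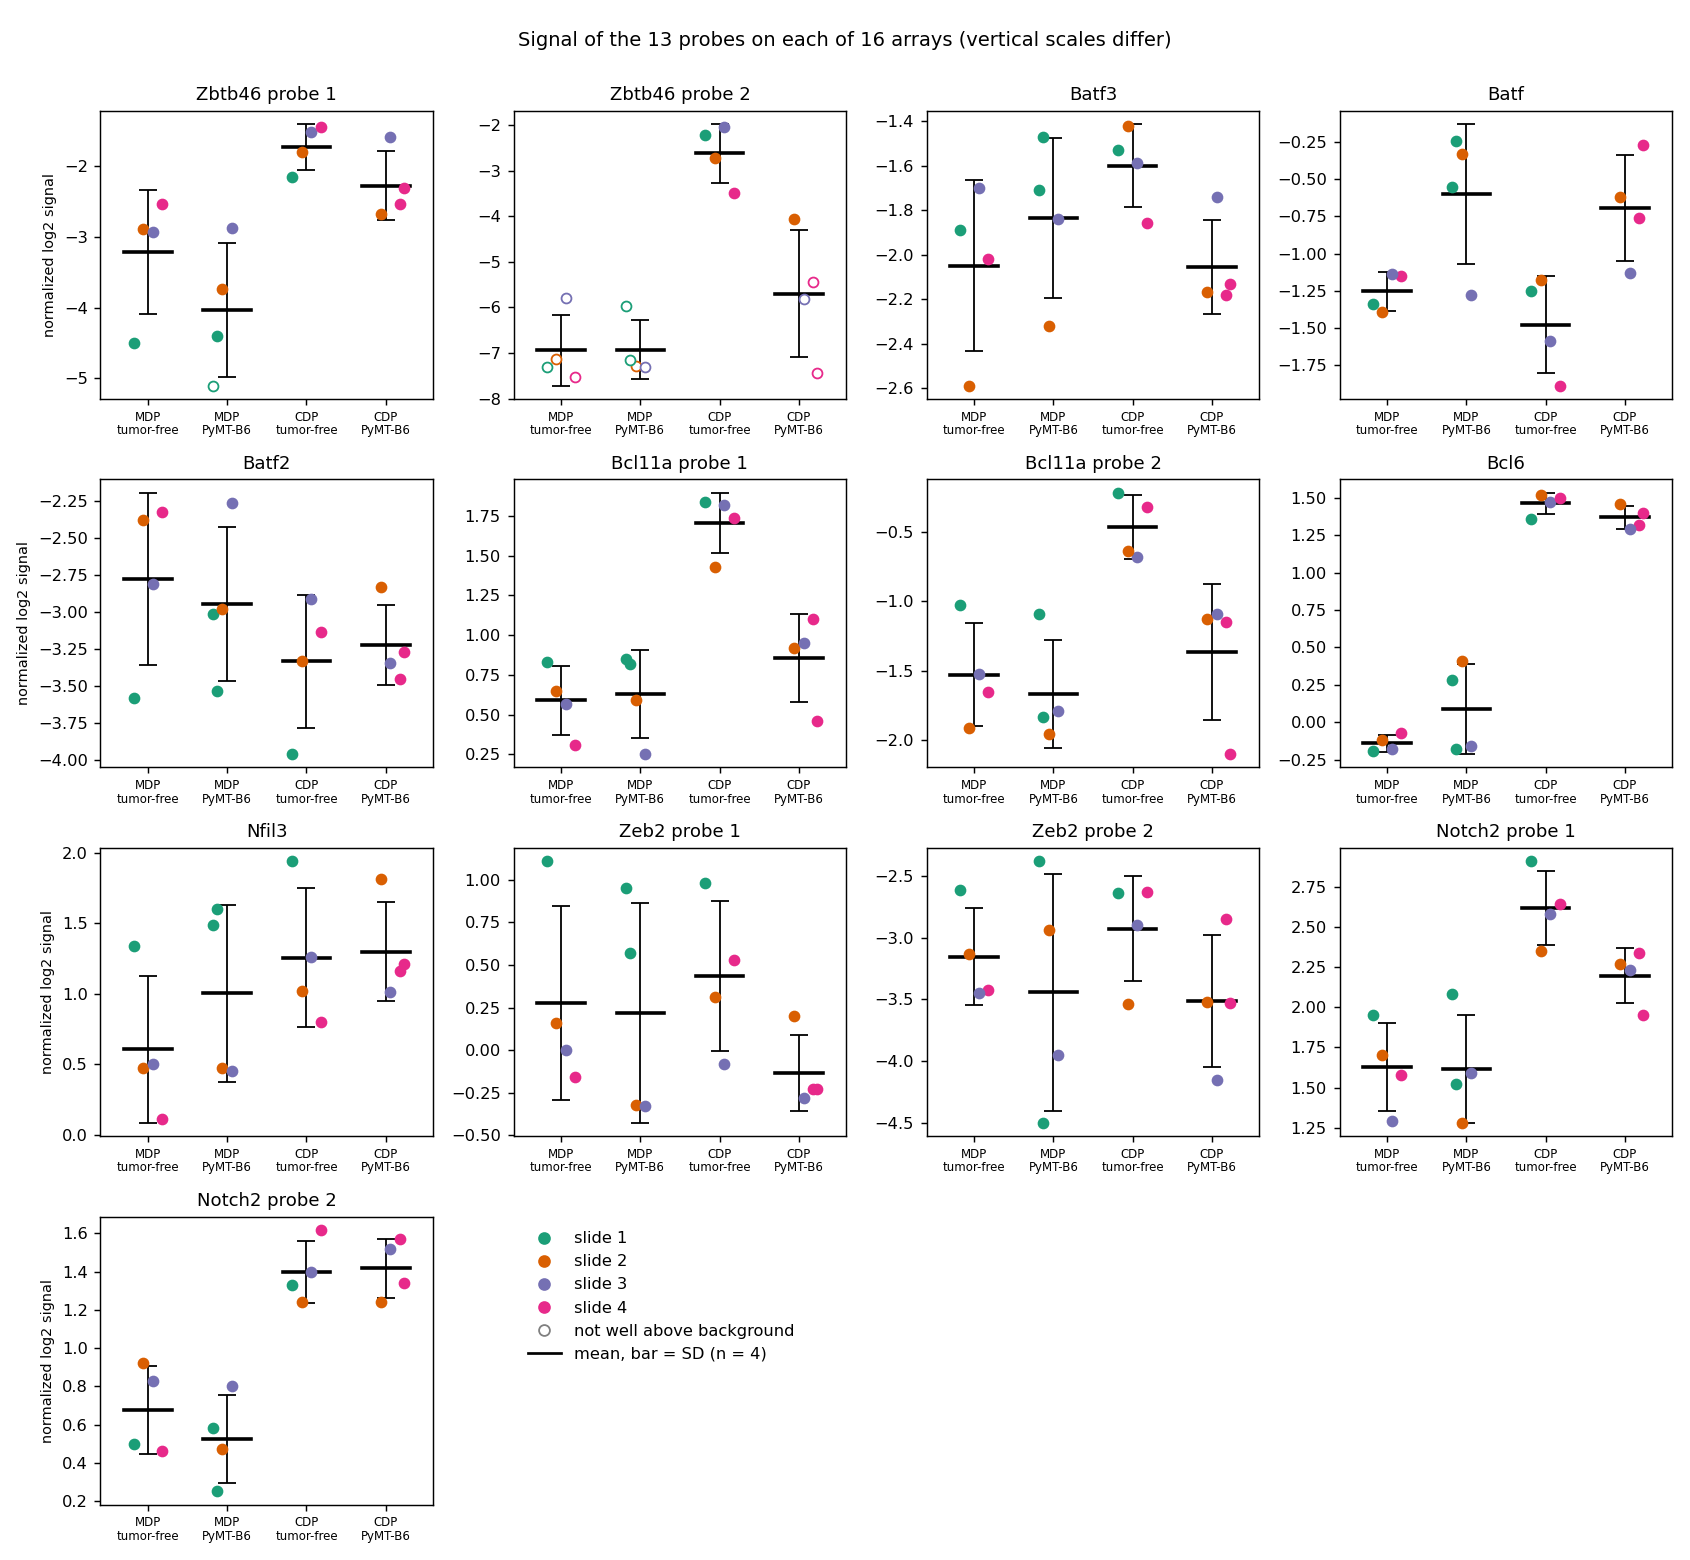
Normalized log2 signal of the 13 probes on each of the 16 arrays, by group, with points colored by slide and open where the probe was not well above background; the horizontal line is the group mean and the bar the SD (n = 4). The CDP arrays of Bcl6 (1.29 to 1.52) lie above all MDP arrays (−0.19 to 0.41), and the tumor-free CDP arrays of Bcl11a probe 1 (1.43 to 1.84) lie above the other 3 groups.

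From MDPs to CDPs in tumor-free mice, Bcl6, Bcl11a and Notch2 rose. Zbtb46 passed the threshold below by probe 2 alone. A probe was called at a limma adjusted p under 0.05 (Benjamini-Hochberg over all 27431 tested probes) and a fold above 1.5. By this rule 6 of the 13 probes were called, all higher in CDPs, where 6.07% of all tested probes were called in either direction and 2.93% higher. Zbtb46 probe 2 is counted among them as a description, since tumor-free CDPs let it pass the filter. Zbtb46 probe 1 missed the threshold (limma adjusted p = 0.0846). The arrays of the groups did not overlap for 7 of the 13 probes, all of them higher in CDPs, against 13.3% of all tested probes (6.57% higher). Zbtb46 probe 2 is counted here as well. The median change of the 13 probes was 0.72 on the log2 scale, and that of all tested probes was 0.02. Batf3, Batf, Batf2, Nfil3 and Zeb2 had no called probe in this comparison.

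In tumor-bearing mice the same step gave 3 called probes, all higher in CDPs, for Bcl6, Notch2 and Zbtb46, where 7.24% of all tested probes were called and 3.53% called higher. The groups did not overlap for 3 of the 13 probes, all higher in CDPs (13.9% of all, 6.96% higher). The median change of the 13 probes was 0.29, beside 0.19 over all tested probes. Bcl11a, called by both probes in tumor-free mice, was called by neither here. The difference between the steps, which is also the difference between the tumor effects in CDPs and MDPs, was called for 0 of 13 probes by limma (0.0146% of all, 4 probes), and 3 of the 13 had an unadjusted p under 0.05. Of all 27431 tested probes, 1110 had an unadjusted p that low.

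**Figure D2:**
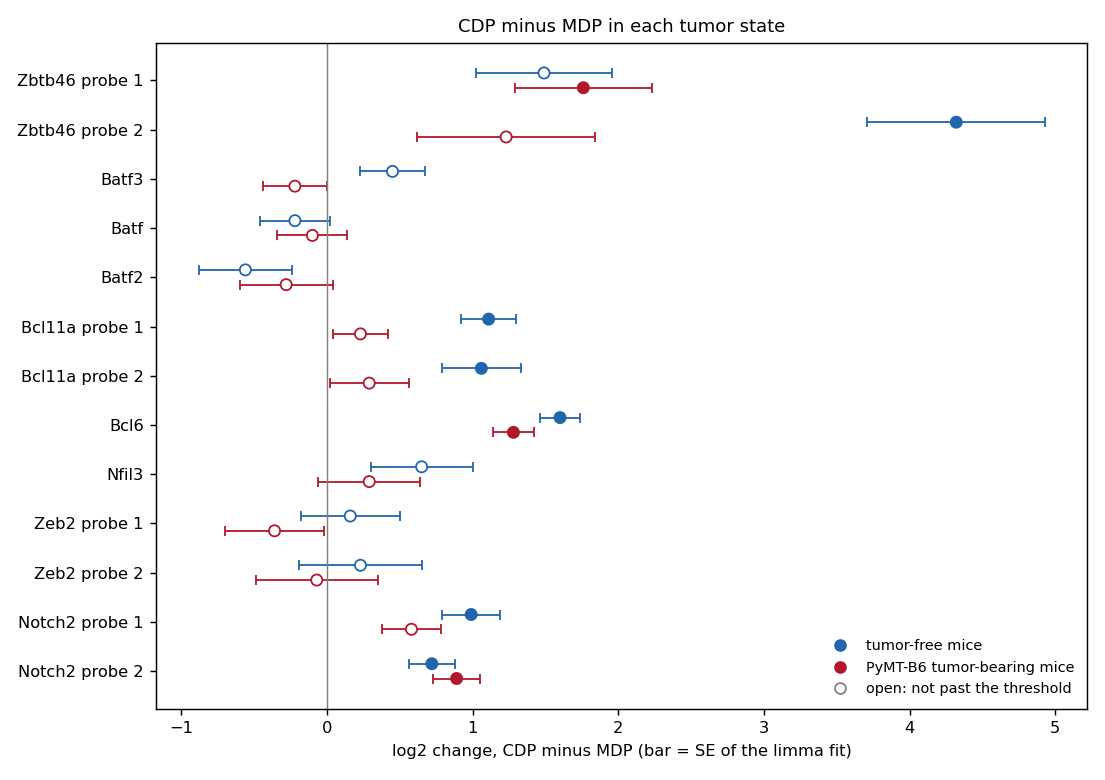
Change from MDPs to CDPs (log2) for each probe in tumor-free and in PyMT-B6 tumor-bearing mice, with the SE of the limma fit as bars and filled points for probes past the threshold. Bcl6 (1.60 and 1.28) and Notch2 probe 2 (0.72 and 0.89) are past it in both states, and Bcl11a probe 1 (1.11 and 0.23) in tumor-free mice.

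In CDPs of tumor-bearing mice, Bcl11a probe 1 fell relative to tumor-free CDPs. It was 1 of the 2 probes called of 13, both lower, and the other was Zbtb46 probe 2, which had entered the test through tumor-free CDPs alone. Of all tested probes, 1.79% were called and 0.988% were called lower. The groups did not overlap for 5 probes (11.1% of all, 5.32% lower and 5.79% higher): Bcl11a probe 1, Bcl11a probe 2, Zbtb46 probe 2 and Notch2 probe 1 were lower and Batf was higher in tumor-bearing mice. The median change of the 13 probes was −0.46, beside 0.08 over all tested probes. With the arrays of slide 1 left out, 0 of the 13 probes were called, and adjusted p was 0.064 for Bcl11a probe 1 and 0.073 for Zbtb46 probe 2.

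In MDPs, limma called 0 of the 13 probes between tumor-bearing and tumor-free mice (0.062% of all tested probes). At an unadjusted p under 0.05 there was 1 probe, Batf, beside 2849 of all 27431 tested probes. No probe had groups that did not overlap (5.21% of all). The median change was −0.01, beside −0.11 over all tested probes. Quantile normalization moved the medians over all tested probes in the 5 comparisons to between −0.00419 and 0.0271, and the members' changes are read beside these shifts.

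**Figure D3:**
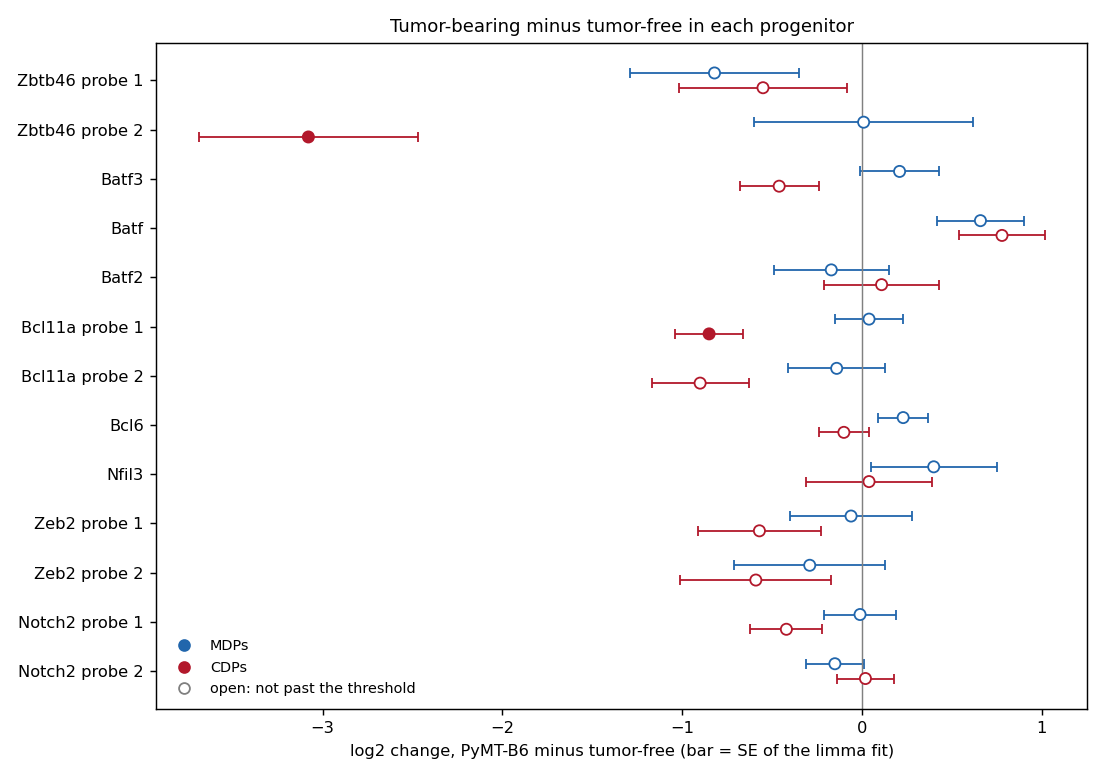
Change with tumor (PyMT-B6 minus tumor-free, log2) for each probe in MDPs and in CDPs, with the SE of the limma fit as bars and filled points for probes past the threshold. Bcl11a probe 1 (−0.85) and Zbtb46 probe 2 (−3.08) are past it in CDPs, and none of the 13 is past it in MDPs.

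Zbtb46, the marker of cDC commitment, was read at a low level in MDPs. For probe 1, replicates 2, 3, 4 and 5 gave −2.89, −4.50, −2.53 and −2.93 in tumor-free MDPs and −5.11, −3.74, −4.40 and −2.88 in MDPs of tumor-bearing mice. In CDPs the values in the same order were −1.51, −1.44, −1.79 and −2.15 without tumor and −2.54, −2.31, −2.67 and −1.58 with tumor. Every CDP array lay above every MDP array of the same tumor state, and the order of the means was tumor-free CDPs, tumor-bearing CDPs, tumor-free MDPs and tumor-bearing MDPs, with overlap between each neighboring pair. The step was 1.76 ± 0.47 (log2 change ± SE) in tumor-bearing mice, with a limma adjusted p of 0.0367, and PyMT-B6 MDP replicate 2, the lowest array, was not well above background. With the slide as a block it was 1.12 (adjusted p = 0.0481), and it was 1.07 and 1.3 on the 2 slides that held both groups. In tumor-free mice it was 1.49 ± 0.47 and missed the threshold (limma adjusted p = 0.0846), but with the slide as a block the adjusted p was 0.00362, and the step was 1.09 to 2.35 within the 4 slides. The step in tumor-bearing mice lost its call without PyMT-B6 MDP replicate 2, 3 or 4, PyMT-B6 CDP replicate 2, 3 or 5 or tumor-free CDP replicate 4, with changes of 1.40 to 1.86 and adjusted p of 0.0501 to 0.11. Among other settings, normexp background correction (1.03, adjusted p = 0.0864), the fit of only the groups compared (adjusted p = 0.098) and the arrays of slides 2 to 4 alone (1.04, adjusted p = 0.112) ended it too. So did the replicate number as a block (adjusted p = 0.0635), no filter and the methods' t-test. Over all runs the adjusted p of this step was at most 0.16. The tumor change of probe 1 in CDPs was −0.55 ± 0.47 (limma adjusted p = 0.712) and −0.87 with the slide block (adjusted p = 0.0831), with −0.98 to −0.07 within 3 slides.

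Zbtb46 probe 2 set tumor-free CDPs apart from the other 3 groups. Its values in tumor-free CDPs were −2.05, −3.49, −2.72 and −2.23, all well above background. In CDPs of tumor-bearing mice they were −5.45, −7.45, −4.07 and −5.82, and replicate 4 alone was well above background. None of the 8 MDP arrays was well above background, with −7.13, −7.31, −7.53 and −5.80 without tumor and −5.96, −7.29, −7.15 and −7.31 with tumor. In the main processing tumor-free CDPs were therefore at least 6.0-fold higher than tumor-free MDPs (the mean of the bright group over the lowest signal well above background on each dim array). The probe passed the filter through that bright group alone, so the limma call of this step is a description. With normexp correction this step was 1.26 on the log2 scale, less than that bound, and not called (adjusted p = 0.115). The fitted tumor change in CDPs was −3.08 ± 0.61, against a group with 1 of 4 arrays above background. It was −3.77 to −1.35 within the 3 slides that held both groups. Its limma call is a description for the same reason. The tumor change rested on arrays near background. Its call was lost without tumor-free CDP replicate 2, tumor-free CDP replicate 5 or PyMT-B6 CDP replicate 3 (adjusted p 0.0578 to 0.0718 over these). With normexp correction it was −1.41 (adjusted p = 0.145), and with only the CDP groups in the fit the adjusted p was 0.112. The methods' t-test ended the call too, and over all runs the adjusted p was at most 0.178. The probes of this gene thus gave different sizes for the tumor change in CDPs, although the sign was negative for each.

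Batf3, the AP-1 factor needed for cDC1s, differed little between the groups. Its values were −2.59, −1.89, −2.02 and −1.70 in tumor-free MDPs, −1.71, −2.32, −1.47 and −1.84 in MDPs with tumor, −1.59, −1.86, −1.42 and −1.53 in tumor-free CDPs and −2.18, −2.13, −2.17 and −1.74 in CDPs with tumor. Of the tumor-bearing CDP arrays, 3 of 4 lay below all tumor-free CDP arrays, and PyMT-B6 replicate 5 lay within their range. The tumor change in CDPs was −0.46 ± 0.22, with a limma adjusted p of 0.377 and an exact two-sided permutation p of 0.0571. The step from MDPs to CDPs was 0.45 ± 0.22 in tumor-free mice (limma adjusted p = 0.317) and −0.22 ± 0.22 in tumor-bearing mice (limma adjusted p = 0.467). The difference of the tumor effects was −0.67 ± 0.31, with an unadjusted p of 0.0458 and a limma adjusted p of 0.749.

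Batf, a relative of Batf3 known from T and B cells, had higher mean values in tumor-bearing mice in both progenitors, though not past the threshold. Its values (means of 10 spots per array) were −1.39, −1.34, −1.15 and −1.14 in tumor-free MDPs and −0.55, −0.33, −0.24 and −1.28 in MDPs with tumor. In CDPs they were −1.59, −1.89, −1.18 and −1.25 without tumor and −0.76, −0.27, −0.62 and −1.13 with tumor. In CDPs all 4 tumor-bearing arrays lay above the tumor-free arrays, and in MDPs 3 of 4 did. The change was 0.78 ± 0.24 in CDPs, with a limma adjusted p of 0.132 and of 0.0548 with the slide as a block, and it was 0.46 to 1.38 within 3 slides. In MDPs it was 0.66 ± 0.24 (limma adjusted p = 0.413), and replicate 5 on slide 3 went the other way, with −0.13 within that slide. The smallest exact permutation p that 4 arrays against 4 allow is 0.0286, and the CDP change reached it.

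Batf2, the third member of the family, was dim but well above background on all arrays. It ranged from −3.58 to −2.32 in tumor-free MDPs, from −3.53 to −2.26 in MDPs with tumor, from −3.96 to −2.91 in tumor-free CDPs and from −3.45 to −2.83 in CDPs with tumor. All 4 groups overlapped. The largest of its changes was the step in tumor-free mice, −0.56 ± 0.32 (limma adjusted p = 0.452), and it was negative within each of the 4 slides, from −0.95 to −0.10.

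Bcl11a, needed early in DC development, was higher in tumor-free CDPs than in each of the other 3 groups. Probe 1 gave 0.65, 0.83, 0.31 and 0.57 in tumor-free MDPs, and 0.85, 0.59, 0.82 and 0.25 in MDPs with tumor. It gave 1.82, 1.74, 1.43 and 1.84 in tumor-free CDPs and 1.1, 0.46, 0.92 and 0.95 in CDPs with tumor. The 4 tumor-free CDP arrays lay above the other 12, while the tumor-bearing CDPs and both MDP groups overlapped. The step was 1.11 ± 0.19 in tumor-free mice, a 2.17-fold rise with a limma adjusted p of 0.00229, called in 8 of 8 fits without 1 of its arrays. In tumor-bearing mice it was 0.23 ± 0.19 (limma adjusted p = 0.377). The tumor change in CDPs was −0.85 ± 0.19, with a limma adjusted p of 0.0338 and −0.96 to −0.51 within 3 slides. Without PyMT-B6 CDP replicate 3, the lowest array, it was −0.71 (adjusted p = 0.117). The call was also lost without PyMT-B6 CDP replicate 4, tumor-free CDP replicate 2, 3 or 5 or tumor-free MDP replicate 2 or 5 (adjusted p 0.0522 to 0.0996). So it was with only the CDP groups in the fit (adjusted p = 0.118) and with the replicate number as a block (adjusted p = 0.0655). The methods' t-test ended the call too, and over all runs the adjusted p was at most 0.129.

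Bcl11a probe 2 also had its highest values in tumor-free CDPs. Its values were −1.91, −1.03, −1.65 and −1.52 in tumor-free MDPs, −1.09, −1.95, −1.83 and −1.79 in MDPs with tumor, −0.68, −0.32, −0.64 and −0.22 in tumor-free CDPs and −1.15, −2.10, −1.13 and −1.09 in CDPs with tumor. Again the tumor-free CDP arrays lay above the other 12, and the other groups overlapped. The step in tumor-free mice was 1.06 ± 0.27 (limma adjusted p = 0.0279). The call was lost without tumor-free MDP replicate 2, 4 or 5 or tumor-free CDP replicate 3, 4 or 5, with changes of 0.93 to 1.12 and adjusted p of 0.0516 to 0.0965. It was also lost with the replicate number as a block (adjusted p = 0.0668). The tumor change in CDPs was −0.90 ± 0.27 and missed the threshold (limma adjusted p = 0.112). For the difference between the tumor effects, probe 1 gave −0.88 ± 0.26 (unadjusted p = 0.00451) and probe 2 gave −0.77 ± 0.38 (unadjusted p = 0.0615), with a limma adjusted p of 0.749 for each. That the tumor changed Bcl11a differently in CDPs and MDPs was thus not shown after adjustment.

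Bcl6, the BTB zinc-finger repressor, had the smallest standard error of the 13 probes and separated the progenitors in both tumor states. It gave −0.12, −0.19, −0.07 and −0.18 in tumor-free MDPs and 0.28, 0.41, −0.18 and −0.16 in MDPs with tumor. In CDPs it gave 1.47, 1.50, 1.52 and 1.36 without tumor and 1.32, 1.40, 1.46 and 1.29 with tumor. The 8 CDP arrays lay above the 8 MDP arrays, and within each progenitor the tumor states overlapped. The step was 1.60 ± 0.14 in tumor-free mice (3.04-fold, limma adjusted p = 1.63e-05) and 1.54 to 1.65 within the 4 slides. In tumor-bearing mice it was 1.28 ± 0.14 (2.42-fold, limma adjusted p = 9.98e-05). Each fit without 1 array and each other processing run kept both calls. The tumor change was −0.10 ± 0.14 in CDPs and 0.23 ± 0.14 in MDPs (limma adjusted p = 0.83 and 0.565).

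**Figure D4:**
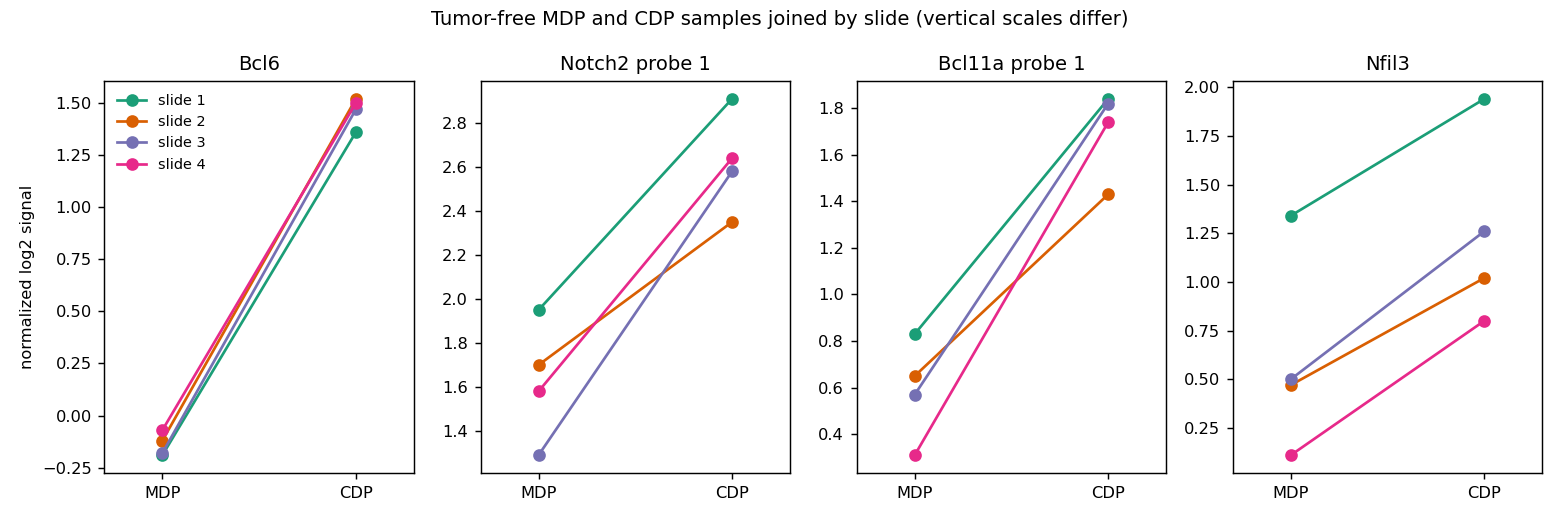
Normalized log2 signal of tumor-free MDP and CDP samples, each line joining the 2 arrays of a slide (n = 4 slides). For Nfil3 the lines are parallel, with a rise of 0.55 to 0.76 on each slide, although the arrays of the progenitors overlap because slide 1 is high for both.

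Nfil3, a bZIP repressor that favors cDC1s, differed between progenitors within slides more clearly than over all arrays. Its values were 0.47, 1.34, 0.11 and 0.50 in tumor-free MDPs, 1.49, 0.47, 1.60 and 0.45 in MDPs with tumor, 1.26, 0.80, 1.02 and 1.94 in tumor-free CDPs and 1.16, 1.21, 1.81 and 1.01 in CDPs with tumor. In the 2 MDP groups and tumor-free CDPs the arrays of slide 1 were the highest, at 1.34 to 1.94. The step in tumor-free mice was 0.65 ± 0.35 and not called (limma adjusted p = 0.391), whereas with the slide as a block the same change had an adjusted p of 0.0119. In tumor-bearing mice the step was 0.29 ± 0.35 (limma adjusted p = 0.549), and the slide block gave 0.91 (adjusted p = 0.00846), with 0.56 and 1.34 on the 2 slides that held both groups. The tumor changes were 0.04 ± 0.35 in CDPs and 0.40 ± 0.35 in MDPs (limma adjusted p = 0.972 and 0.649).

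Zeb2, the E-box repressor opposed by Nfil3, had no called change. Probe 1 gave 0.16, 1.11, −0.16 and 0.00 in tumor-free MDPs, 0.95, −0.32, 0.57 and −0.33 in MDPs with tumor, −0.08, 0.53, 0.31 and 0.98 in tumor-free CDPs and −0.23, −0.23, 0.20 and −0.28 in CDPs with tumor. Here too the highest value of the first 3 groups was on slide 1, and all groups overlapped. The tumor change in CDPs was −0.57 ± 0.34 for probe 1 and −0.59 ± 0.42 for probe 2, with limma adjusted p of 0.53 and 0.629. Within slides probe 1 was lower in the tumor-bearing CDPs on 3 of 3 slides, with differences of −0.76 to −0.11, and in the tumor-bearing MDPs on 3 of 3, with differences of −0.47 to −0.33. Probe 2, which was dim, ranged from −4.50 to −2.38 over the 16 arrays. The step was 0.16 ± 0.34 and 0.23 ± 0.42 for the probes in tumor-free mice. A further probe described as a predicted Zeb2 transcript carries another gene name and was not taken.

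Notch2, the receptor, was higher in CDPs than in MDPs by both probes. Probe 1 gave 1.70, 1.95, 1.58 and 1.29 in tumor-free MDPs, 2.08, 1.28, 1.52 and 1.59 in MDPs with tumor, 2.58, 2.64, 2.35 and 2.91 in tumor-free CDPs and 2.34, 1.95, 2.27 and 2.23 in CDPs with tumor. The tumor-free CDP arrays lay above all others, and the highest tumor-bearing MDP array lay within the range of the tumor-bearing CDPs. The step was 0.99 ± 0.20 in tumor-free mice (1.98-fold, limma adjusted p = 0.00709), and 0.89 with normexp correction, which ended the call (adjusted p = 0.0599). In tumor-bearing mice it was 0.58 ± 0.20 and missed the threshold (limma adjusted p = 0.0864), while the slide block gave 0.76 (adjusted p = 0.0268) and the fit without PyMT-B6 MDP replicate 2 gave 0.73 (adjusted p = 0.0399). The tumor change in CDPs was −0.42 ± 0.20, with a limma adjusted p of 0.359, and −0.33 with the slide block (adjusted p = 0.24).

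Notch2 probe 2 gave 0.92, 0.50, 0.46 and 0.83 in tumor-free MDPs, 0.58, 0.47, 0.25 and 0.80 in MDPs with tumor, 1.40, 1.62, 1.24 and 1.33 in tumor-free CDPs and 1.57, 1.34, 1.24 and 1.52 in CDPs with tumor. All 8 CDP arrays lay above all 8 MDP arrays, and the CDP groups overlapped each other. The step was 0.72 ± 0.16 without tumor and 0.89 ± 0.16 with tumor, with limma adjusted p of 0.0149 and 0.00429. The call without tumor was lost without tumor-free CDP replicate 3 (0.65, adjusted p = 0.0509) and with only the tumor-free groups in the fit (adjusted p = 0.0557). Its tumor change in CDPs was 0.02 ± 0.16 (limma adjusted p = 0.977), so that the lower values of probe 1 in CDPs with tumor were not shared by probe 2.

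The marker genes of the sort and of other cells were read in the same arrays. Kit, the receptor that separates MDPs (high) from CDPs (low), averaged 1.67 ± 0.11 (SD, n = 4) in tumor-free MDPs, 1.55 ± 0.18 in MDPs with tumor, −0.92 ± 0.29 in tumor-free CDPs and −2.26 ± 0.39 in CDPs with tumor. It was thus also lower in CDPs with tumor than without, by −1.34 ± 0.20 (limma adjusted p = 0.00441). Flt3 and Csf1r, which define both progenitors, were well above background on all 16 arrays. Flt3 averaged 1.71 ± 0.36 in tumor-free CDPs and 0.91 ± 0.65 with tumor, Csf1r 4.44 ± 0.19 and 4.23 ± 0.10, and Cx3cr1 3.21 ± 0.21 and 1.95 ± 0.73. Of 5 tested genes of the sort, 4 had an unadjusted limma p under 0.05 in CDPs with tumor, beside 3752 of all 27431 tested probes. Kit was the 1 called, and 1 of the 5 rose (Ly6a). Il7r, a lymphoid receptor, was well above background on 0 of 8 MDP arrays and on 1 of 4 arrays of each CDP group. Of 10 neutrophil markers on the array, all 10 were well above background on 3 or more arrays of every group. Their summed signal was 5.60 to 6.12 in tumor-free CDPs and 6.47 to 7.0 in CDPs with tumor on the log2 scale, without overlap, and 6.47 to 7.05 in tumor-free MDPs. The neutrophil granule genes Elane and Lcn2 were the 2 of 10 called in CDPs, higher by 1.12 and 2.70, beside 1.99% of all genes. The tumor change in CDPs was positive for 7 of the 10. The granule genes Camp (−2.38 to −3.02), Ltf (−3.03 to −3.48) and Ngp (−3.03 to −3.28) had lower means in CDPs with tumor. Lcn2 was also higher in MDPs with tumor, by 2.17 (limma adjusted p = 0.0493), where 0.086% of all genes were called. The 6 monocyte markers summed to 5.39 to 5.71 in tumor-free CDPs and 5.70 to 6.09 with tumor. Of these, 1 of 6 was called higher (Ms4a3, 2.19), beside 1.99% of all genes called in either direction. The called neutrophil and monocyte markers moved in the same arrays as Bcl11a and Zbtb46. Their part in the tumor changes of those genes was not tested. Of 8 cDC1 markers, 5 were well above background on 3 or more arrays of each CDP group. Xcr1 and Tlr3, which define mature cDC1s, were not well above background on any array. Clec9a averaged 0.93 ± 0.34 (SD) in tumor-free CDPs and −2.52 ± 1.57 in CDPs with tumor, and Naaa −0.24 ± 0.42 and 0.81 ± 0.39. The tumor change in CDPs was positive for 2 of 5 tested cDC1 genes.

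Of 25 tested genes on a list of other DC and myeloid fate regulators, 7 were called in the tumor-free step (5 higher and 2 lower) and 7 in the tumor-bearing step (4 higher and 3 lower), where 7.02% and 8.2% of all 16275 genes were called, each by its brightest tested probe. The list medians were 0.27 and 0.31 beside 0.02 and 0.16 over all genes. Irf8, the factor that works with Batf3 in cDC1s, was not called in the steps (0.22 ± 0.24 and 0.33 ± 0.24) or in CDPs with tumor (−0.02 ± 0.24, limma adjusted p = 0.979). Spi1, which encodes PU.1, was not called either, with steps of 0.30 ± 0.17 and 0.36 ± 0.17. Irf4, the cDC2 factor, rose in the step by 3.10 ± 0.43 in tumor-free mice, where 2 of 4 MDP arrays were above background. In tumor-bearing mice Irf4 was at least 4.42-fold higher in CDPs, since no MDP array was well above background (limma adjusted p = 6.17e-05). Id2, an inhibitor of E proteins that Zeb2 is known to repress, was at least 5.38-fold higher in CDPs than in MDPs of tumor-free mice (limma adjusted p = 0.00695) and 3.80 ± 0.66 higher in tumor-bearing mice, where 1 of 4 MDP arrays was above background. Irf4 and Id2 passed the filter through the CDP groups alone, where they were high. Their step values and their place among the called genes are therefore a description.

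In CDPs with tumor, 3 of these 25 regulators were called, 1 higher and 2 lower, beside 1.99% of all genes. Spib, a pDC factor, passed the filter through tumor-free CDPs alone, with 2 of 4 arrays above background in tumor-bearing CDPs and in tumor-free MDPs. Its fitted differences from tumor-free CDPs, given as a description, were −3.13 ± 0.61 for the tumor and 4.15 ± 0.61 for the tumor-free step. Spib is counted, as a description, among the genes called lower here and among those called higher in the tumor-free step. Runx2, which is used in pDCs, fell by 2.96 (SE 0.37, limma adjusted p = 0.00154). Runx2 had risen in the tumor-free step, by 1.82 ± 0.37, as Bcl11a had. These comparisons share the tumor-free CDP samples. Gfi1, a granulocyte factor, went the other way: it was lower in CDPs than in MDPs by −4.42 ± 0.39 in tumor-free mice and by −2.91 ± 0.39 in tumor-bearing mice, and higher in CDPs with tumor by 1.73 ± 0.39 (limma adjusted p = 0.0383). In MDPs limma called 0 of the 25 between tumor states (0.086% of all genes), and 6 had an unadjusted p under 0.05, beside 2849 of all 27431 tested probes.

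Partners and relatives of the members are read against the same shares of all genes. Of 10 tested AP-1 and related genes, Fos was the 1 called in CDPs with tumor, higher by 1.28 ± 0.20 (limma adjusted p = 0.00739), and Fos (1.49 ± 0.20) and Fosl2 (1.29 ± 0.34) were the 2 called in the tumor-bearing step. Of 22 tested Notch pathway genes, Psen2, a subunit of gamma-secretase, and Lfng, which glycosylates Notch receptors, were the 2 called in CDPs with tumor, higher by 0.85 ± 0.15 and 0.90 ± 0.21. Both also had higher means in MDPs with tumor, though not called there. Psen2 averaged 0.57 in tumor-free MDPs and 0.85 with tumor, and Lfng −0.15 and 1.03. In the steps the Notch list gave Psen2 (−0.69 ± 0.15) and the ligase gene Dtx4 (−0.84 ± 0.19) without tumor and Mfng (−0.73 ± 0.19) with tumor. Rbpj, the DNA-binding partner of Notch, was not called in any of the comparisons. Of 7 paralogs of the members, Zeb1 was the 1 called, lower in CDPs with tumor by −2.44 ± 0.52 (limma adjusted p = 0.0297, 3 of 4 arrays above background). Of 27 corepressor genes, Hdac4 (0.73 ± 0.19) and Rcor1 (−0.73 ± 0.21) were called in the tumor-bearing step. In the other comparisons limma called 0 of the 27, with an unadjusted p under 0.05 for 7 in the tumor-free step, 3 in CDPs with tumor and 0 in MDPs with tumor. Of all 27431 tested probes, 4683, 3752 and 2849 had such a p, in that order.

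The genes of the PAR bZIP and clock list, some of whose promoter elements Nfil3 can occupy, were lower in CDPs where called. In the tumor-free step 5 of 14 tested genes were called, beside 7.02% of all genes, and all were lower: Hlf, Per3, Per2, Arntl and Cry2, with a median over the list of −0.44. Hlf, a stem cell bZIP factor, was at least 3.89-fold lower in CDPs, where no array was well above background. Per3 fell by 2.03 (SE 0.37) and Per2 by 1.70 (SE 0.45). In tumor-bearing mice 2 of 14 were called, Hlf and Per3 (−2.46 ± 0.40 and −1.34 ± 0.37), beside 8.2% of all genes. Hlf was well above background there on 2 of 4 CDP arrays. Hlf passed the filter through the MDP groups alone, where it was high, so its calls in both steps are counted as a description. The list median was −0.08, beside 0.16 over all genes.

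The genes whose signals ran most like those of each member over the 16 arrays were named by Pearson r, taking probe 1 of a pair. These correlations hold the group and slide differences of all arrays and are a description. For Zbtb46 they were Sdc3 (0.966), Adap2 (0.961) and Tmem221 (0.96), and for Bcl6 they were Itgb2 (0.973), Rbm47 (0.972) and Clec4a3 (0.97). For Bcl11a they were Prkcd (0.935), St3gal5 (0.923) and Arhgap5 (0.918), and for Notch2 they were Acot11 (0.957), Elf4 (0.95) and Nfatc2 (0.949). Nfil3 ran most like Lrrfip1 (0.949), Tmem109 (0.943) and Anln (0.936). Zeb2 ran most like Mbd6 (0.957), Zbtb14 (0.949) and Cnot6 (0.945), and its r values dropped to 0.875, 0.816 and 0.768 once slide means were removed. The closest genes to the Batf family were less close: Dstn (0.894), Dgat2 (0.882) and B4galt6 (0.877) for Batf, Atp8b4 (0.868), Nacc1 (0.865) and Nlrp1a (0.847) for Batf2, and 2210416O15Rik (0.824) and Gask1b (0.803) for Batf3.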

How the data were processed

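Groups follow the sample titles. For each of 16 samples the authors deposited scanner output from Agilent Feature Extraction 11.5.1.1 (1 color, mm9 positions). Its processed signal is a background-subtracted spot intensity, not scaled between arrays; per the file headers it also holds mean and background intensities and flags of 0 or 1. A table of log2 values for 26793 probes was deposited too, found to be the processed signal after quantile normalization and used as an alternative. The submitters' notes name limma.

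Outlier spots (182 to 289 on each array) and control spots (1377 of 44397) were dropped. From the log2 processed signal the 75th percentile of the array was subtracted, and spots of the same probe were averaged. A probe was tested when some group had it well above background on 3 or 4 of its arrays (27431 probes). A limma fit (version 3.58.1, R 4.3.3) gave the 4 group means, and probes were called at a Benjamini-Hochberg adjusted p under 0.05 and a fold above 1.5. Single probes also had the exact two-sided permutation test over 70 relabelings. The fit was checked on simulated data. No depth applies to arrays; their number limits the precision. Nothing says that the mice of different samples were unrelated, so p-values measure the spread between these samples.

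A gene on a list is given by its brightest tested probe. Beyond the members, the text names the 3 genes most correlated with each (1 gene for Batf3 is not reported here), list genes that were called (at most 5 per list, by size), Irf8, Irf4, Id2, Spi1 and Kit; marker genes other than Kit and the uncalled Rbpj were named after their values were seen. Of 18 lists, 6 hold related genes and 12 hold markers of the sort or of other cell types. Members and lists were chosen with earlier results of these data known. Of the marker lists whose calls are not given above, limma called 1 of 6 cDC2 genes (Cd209a) and 1 of 7 pDC genes (Bst2) in CDPs with tumor. Both were lower, and Cd209a was lower in MDPs with tumor too. In CDPs it called 0 of 33 genes on the other 7 lists (cDC1, B cell, T and NK cell, erythroid, mast cell and basophil, megakaryocyte, mammary tumor cell), with 7 at an unadjusted p under 0.05. Of all 27431 tested probes, 3752 had such a p in CDPs with tumor.

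The alternatives were normexp correction (offset 50), quantile normalization, median scaling, no filter, a filter on all 16 arrays, outlier spots kept, blocks for the slide or the replicate number, only the groups compared, the value table, the methods' t-test, no fold threshold, 1 probe per gene and leaving out each array. Leaving out slide 1 was added after seeing the data.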

Additional observations from a re-analysis of the deposited data

Results flagged for a closer look

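Each of the 13 probes was looked at in its 4 groups for an array that stood apart from the other 3 by Dixon's test. Of the 52 groups of 4 arrays, 4 held such an array, and chance gives about 1 in 20, or 2.6 of 52. Zbtb46 probe 2 had −5.96 in PyMT-B6 MDP replicate 2, above the other 3 arrays at −7.31 to −7.15, none of them well above background. Batf3 had −1.74 in PyMT-B6 CDP replicate 5, above −2.18 to −2.13. Bcl11a probe 2 had −2.1 in PyMT-B6 CDP replicate 3, below −1.15 to −1.09, and the same sample was also the lowest for probe 1 (0.46) and for Notch2 probe 1 (1.95). Zeb2 probe 1 had 0.2 in PyMT-B6 CDP replicate 4, above −0.28 to −0.23.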

How the results depend on the processing

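Of the 13 probes, the number called in CDPs with tumor was 2. It was 1 with normexp correction, with probes above background on all 16 arrays, with the replicate block and with 1 probe per gene, and 0 with only the groups compared, the methods' t-test and slides 2 to 4 only. Leaving out 1 array gave 0 to 2. In the tumor-free step the count of 6 became 3 (of 9 probes) with 1 probe per gene and was 4 to 8 under the others. In the tumor-bearing step the count of 3 became 5 with the slide as a block. It became 2 with normexp correction, no filter, the filter on all 16 arrays and the replicate block. It was also 2 with only the groups compared, the methods' t-test and 1 probe per gene. Leaving out 1 array gave 4 to 6 in the tumor-free step and 2 to 3 in the tumor-bearing step. In MDPs and for the difference of the tumor effects it was 0 under each alternative run. The difference could not be fitted with only the groups compared or by the t-test. The cause of these moves was not tested, beyond the fewer probes, arrays or samples that a setting holds.

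Same-numbered samples did not deviate together as a set (r −0.695 to 0.481, median −0.00547, 8 of 24 pairs above 0.1). Slide differences were left in these values (median r 0.263 for samples of a slide), so the check cannot exclude a pairing by experiment. The main fit did not pair the numbers. With the replicate block the counts in CDPs with tumor, the tumor-free step and the tumor-bearing step were 1, 5 and 2, and the calls lost were Bcl11a probe 1 in CDPs with tumor (−0.85, adjusted p = 0.0655), Bcl11a probe 2 in the tumor-free step (1.06, adjusted p = 0.0668) and Zbtb46 probe 1 in the tumor-bearing step (1.76, adjusted p = 0.0635). Over all tested probes, calls in CDPs with tumor were 491, against 1251 with the slide as a block, 55 with only the groups compared and 3 by the methods' t-test. In MDPs they were 17, against 45 with the slide block.

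No change that was called turned its sign, and 54 results on single probes were followed through 12 alternatives. Turns of the difference of the tumor effects, which was not called for any member, are not listed in full. With the slide block they included Zbtb46 probe 1 (0.27 to −0.37), Batf2 (0.28 to −0.13) and Nfil3 (−0.36 to 0.26). Small uncalled changes in the other comparisons turned as follows. Tumor in MDPs: Zbtb46 probe 2 −0.31 (normexp), −0.30 (slide block) and −0.48 (slides 2 to 4); Batf2 0.16 (quantile, value table) and 0.03 (slide block); Bcl11a probe 1 −0.06 (slide block) and −0.09 (slides 2 to 4); Bcl11a probe 2 0.04 and Zeb2 probe 2 0.11 (quantile, value table); Notch2 probe 1 0.01 (median scaling). Tumor in CDPs: Batf2 −0.09 (slide block) and −0.10 (slides 2 to 4); Nfil3 −0.04 (quantile, value table); Notch2 probe 2 −0.06 (normexp), −0.05 (quantile, value table), −0.03 (slide block) and −0.01 (slides 2 to 4). Steps: in tumor-bearing mice Batf3 0.02 and Batf 0.11 (slides 2 to 4) and Zeb2 probe 1 0.14 (slide block) and 0.18 (slides 2 to 4), and in tumor-free mice Zeb2 probe 2 −0.11 (normexp). Leaving out 1 array spread changes over 0 for tumor in MDPs in Zbtb46 probe 2 (−0.31 to 0.40), Batf2 (−0.44 to 0.02), Bcl11a probe 1 (−0.06 to 0.16) and probe 2 (−0.33 to 0.03), Zeb2 probe 1 (−0.30 to 0.22) and probe 2 (−0.64 to 0.07) and Notch2 probe 1 (−0.17 to 0.10). It did so for tumor in CDPs in Batf2 (−0.10 to 0.25), Nfil3 (−0.13 to 0.27) and Notch2 probe 2 (−0.04 to 0.09), for the tumor-bearing step in Batf (−0.32 to 0.05) and Zeb2 probe 2 (−0.43 to 0.28), and for the tumor-free step in Zeb2 probe 1 (−0.02 to 0.44).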
